A study of Mus musculus with 24 samples.

Results

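Moderate hydronephrosis was examined in 5 whole kidneys of mgb-/- mice against 6 whole kidneys of mgb+/+ control mice, out of 24 kidneys in the series. Grade and genotype differ together in this comparison, so they cannot be told apart. The members were taken from the sample titles, which grade each kidney as control, mild, moderate or severe, so no measured expression value entered their choice. All groups were male, age-matched and a few weeks old, and none received an added agent. The remaining mgb-/- kidneys were graded mild (7) or severe (6) and serve here as neighbours of the moderate grade, and they were compared with the same 6 control kidneys. The grade had been read by ultrasound from the parenchyma that was left, and the labels do not say whether any 2 kidneys came from 1 mouse. Nothing states that the kidneys were independent animals, and the p-values below treat each kidney as a separate sample. They set a difference against a spread between kidneys that was estimated over all 24.

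The megabladder (mgb) mouse is a line in which homozygous fetuses lack a functional smooth muscle layer in the bladder wall. The bladder fills without emptying, urine backs up and the renal pelvis distends, which makes the line a model of congenital obstructive nephropathy. Obstructed kidney is known for injury of the tubule epithelium, acute-phase and cytokine signalling, remodelling of the urothelium that lines the pelvis, and loss of proximal tubule transport. The mutation arose from a transgene insertion and has been described as placing a piece of chromosome 16 into chromosome 11, where Myocd, the smooth muscle coactivator myocardin, lies. Which genes that piece holds was not examined here.

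Each kidney was hybridised to 1 single-colour Agilent array. The value used throughout is the log2 signal of a probe minus the 75th percentile of that array, so 0 stands for the array's own 75th percentile and a difference of 1 between kidneys is a 2-fold difference. Values of different genes come from different probes and are not set against each other. The 75th percentile lay between 496 and 968 intensity units over the 24 arrays, and 55.1% to 70.7% of probes stood well above background. Genes were tested with limma in 1 fit of all 24 kidneys, and a gene was called when its Benjamini-Hochberg adjusted p was under 0.05 and its difference at least 2-fold. Whole-kidney RNA cannot tell fewer cells of a type from less RNA per cell.

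Of 27971 genes tested, 148 were called higher in moderate than in control kidneys and 56 lower, which is 0.529% and 0.2% of all genes, together 0.729%. The most numerous group among the lists examined was the immediate early genes, of which 9 of 29 were higher. Acute-phase genes (Fgg, Fga, Cp), complement C3, the chemokines Cxcl1 and Ccl9, the cornified envelope genes Sprr2g and Ivl and the keratin Krt20 were also higher, and the carboxylesterase Ces1g had the largest named fall. Of the 204 called genes 106 of the risers and 35 of the fallers carry a gene symbol, and 42 and 21 are known here by accession or probe alone. In all, 5157 genes had an unadjusted p under 0.05, the called ones included, and 336 had an adjusted p under 0.05 at any fold. Counts of list members at an unadjusted p under 0.05 below are to be read beside these 5157 of 27971 genes.

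The 5 moderate kidneys were not alike. Over the 148 risers, the median log2 difference from the control mean was 2.60 in moderate kidney 1, 1.50 in kidney 2, 2.22 in kidney 3, 2.33 in kidney 4 and 1.23 in kidney 5. Over the 56 fallers, the same medians were −2.10, −0.57, −1.48, −1.98 and −1.26. Kidney 5 held the lowest of the 5 values for 79 of the risers and kidney 2 for 44, and kidney 2 held the highest value for 39 of the fallers. Kidneys 2 and 5 therefore lay nearest to the controls. Both were hybridised on the second of 3 slides, each slide holding 8 arrays of several groups. The median SD of a gene within the moderate kidneys was 0.380, against 0.266 within controls, 0.269 within mild and 0.476 within severe kidneys.

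The number of calls depended on which kidneys entered the fit. Without moderate kidney 1 there were 10 genes higher and 4 lower, without kidney 3 there were 38 and 22, and without kidney 4 there were 31 and 5. Without moderate kidney 2 the counts were 368 and 263, and without kidney 5 they were 459 and 179. Leaving out a control kidney gave 58 higher and 19 lower for control 1, 68 and 20 for control 2, 35 and 9 for control 3, 44 and 18 for control 4, 84 and 55 for control 5, and 41 and 10 for control 6. Among the other grades, leaving out severe kidney 5 gave 364 and 129 and severe kidney 6 gave 232 and 105, since they share the estimate of the spread. In each of the 24 fits that left out 1 kidney, 12 genes were called. Of these, 9 were higher: Fos, Egr2, Cebpd, Cldn16, Tmem207, Ccdc50, Rasd1, Lhx9 and Fetub. The other 3 were lower: Afp, Spry3 and a transcript known by accession alone.

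The immediate early genes encode transcription factors and feedback regulators that cells switch on within minutes of a stimulus, without new protein synthesis. Of 32 listed, 29 were tested (Egr3, Egr4 and Nr4a3 were too dim), and all 29 had a positive difference, with a median of 1.11 beside −0.03 over all genes. The 9 called were the transcription factors Fos, Egr1, Egr2, Nr4a1, Atf3, Jun and Junb, the antiproliferative factor Btg2 and the MAP kinase phosphatase Dusp1.

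Fos read 0.61, 0.81, 0.32, 0.01 and −0.28 in moderate kidneys 1 to 5 and −4.47, −3.01, −4.49, −2.59, −4.40 and −4.26 in control kidneys 1 to 6. The lowest moderate kidney thus stood above the highest control by over 2 log2 units, and the difference was 4.17 ± 0.70 (SE, adjusted p = 0.012, limma), or 17.9-fold. Egr2 read 0.03, −0.72, −0.20, −0.48 and −3.07 in the moderate and −4.90, −4.58, −5.77, −4.87, −4.70 and −4.83 in the control kidneys. Its difference was 4.05 ± 0.54 (SE, adjusted p = 0.00102, limma), and kidney 5 was the lowest of the moderate group without reaching any control. Egr1 read 3.55, 3.77, 2.87, 2.68 and 2.31 against −0.23, −0.01, −1.01, −0.02, −0.07 and −0.58. The groups again did not overlap, and the difference was 3.36 ± 0.59 (SE, adjusted p = 0.0143, limma).

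For these genes, unlike most that follow, moderate kidney 2 was not near the controls: it had the highest value of the 5 for Fos, Egr1, Nr4a1, Jun and Dusp1. Nr4a1 rose by 2.43 ± 0.44, Atf3 by 2.42 ± 0.59, Junb by 1.96 ± 0.42, Btg2 by 1.84 ± 0.32, Dusp1 by 1.33 ± 0.24 and Jun by 1.18 ± 0.28 (SE, adjusted p between 0.0143 and 0.0437). All 9 called members had every moderate kidney above every control kidney. Over the whole list 14 of 29 did so, whereas 1.32% of all genes tested did. Members that were not called ranged down to Dusp6 at 0.10 ± 0.14, Jund at 0.38 ± 0.16, Fosb at 1.37 ± 0.44 (adjusted p = 0.108) and Ccn1, a matricellular protein, at 2.03 ± 0.53 (adjusted p = 0.0559). Without moderate kidney 1, Fos and Egr2 were still called and the other 7 were not. Without kidney 3 the list had 7 calls, without kidney 4 it had 6, without kidney 2 it had 10 and without kidney 5 it had 15.

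**Figure D1:**
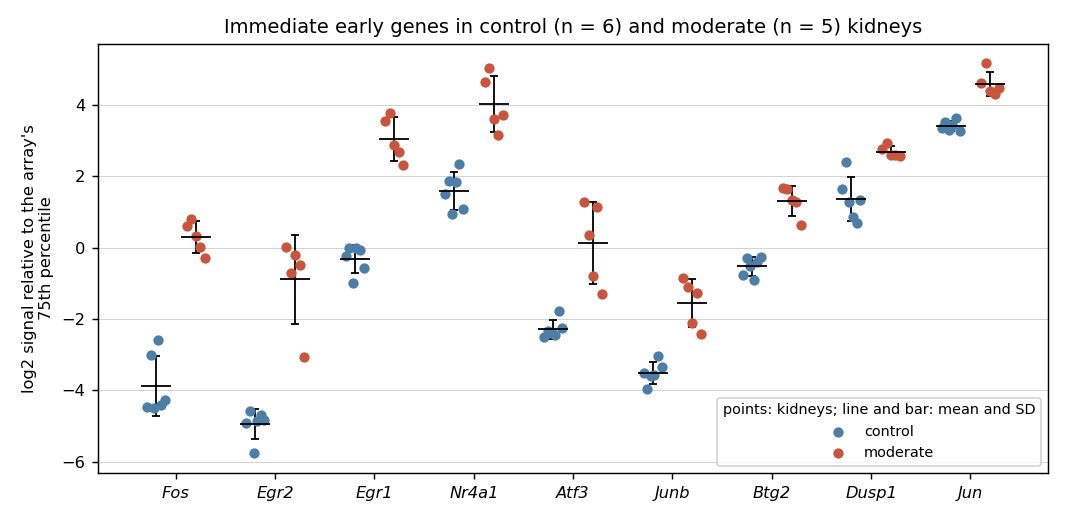
Log2 signal relative to the 75th percentile of the array for the 9 called immediate early genes; each point is a kidney (6 control, 5 moderate), and the line and bar are the mean and SD. All 5 moderate kidneys stand above all 6 control kidneys for each of the 9 genes, and the mean difference is largest for Fos.

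Several of these genes carry a cAMP response element next to their start, the site through which the CREB and ATF factors act, so the sequence upstream of the called members is shown. The letters TGACGT, the shared core of that element, were searched on both strands in the 250 bases before each annotated start in the RefSeq promoter set (GRCm38.p6). They were found in 5 of the 8 called members with a promoter in the set used (62.5%), in 8 of 23 tested members of the list (34.8%), in 3 of the 15 that were not called (20%) and in 1971 of 27025 genes in all (7.29%). Capitals mark the match, with ACGTCA being the same letters on the opposite strand and TGACGTCA an overlapping match on both strands.
Fos, chr12:85473794-85473859, plus strand: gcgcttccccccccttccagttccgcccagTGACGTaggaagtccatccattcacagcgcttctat
Egr2, chr10:67537783-67537848, plus strand: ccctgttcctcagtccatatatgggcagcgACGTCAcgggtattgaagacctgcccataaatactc
Atf3, chr1:191183334-191183371, minus strand: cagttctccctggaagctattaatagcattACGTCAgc
Btg2, chr1:134079284-134079351, minus strand: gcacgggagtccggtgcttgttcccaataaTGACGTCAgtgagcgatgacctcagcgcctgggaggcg
Dusp1, chr17:26508578-26508693, minus strand: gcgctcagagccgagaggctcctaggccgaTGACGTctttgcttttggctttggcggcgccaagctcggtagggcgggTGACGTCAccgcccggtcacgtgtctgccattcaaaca
Each window is read 5′ to 3′ along the gene. The match begins 66 bases before the start of Fos, 56 before the nearest start of Egr2 and 8 before that of Atf3. Jun, Junb and Nr4a1 do not hold these letters in the window searched. A match is a stretch of letters and no binding was measured.

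Among the cytokine and STAT3 feedback genes, 2 of 19 tested were called higher, and the list median was 0.92. Both are C/EBP transcription factors, which drive acute-phase genes. Cebpd read 5.65, 4.78, 5.68, 5.38 and 4.05 in the moderate and 2.52, 3.55, 3.20, 3.50, 3.32 and 3.28 in the control kidneys, a difference of 1.88 ± 0.29 (SE, adjusted p = 0.00769, limma) with no overlap. Cebpb differed by 1.22 ± 0.23 (SE, adjusted p = 0.0163, limma), and was not called without moderate kidney 1. Genes of the IL-6 and STAT3 pathway itself were high in some moderate kidneys and near the controls in others. Il6, the ligand, read −1.30, −6.22, −4.91, −2.73 and −7.47 and was not well above background on any control array. Socs3, the feedback inhibitor of STAT3 signalling, read 3.50, −0.25, 1.80, 2.70 and −0.93 against −1.34 to −0.67 in controls. Neither passed the test (adjusted p = 0.125 and 0.0819, limma), and Stat3 itself differed by 0.86 ± 0.25 (adjusted p = 0.0829).

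The acute-phase list holds plasma proteins that liver, and injured kidney epithelium, make under cytokine signalling. All 20 members were tested, 3 were called higher and none lower, and the median difference was 2.32. Fgg, the fibrinogen gamma chain, read 7.23, 0.84, 4.03, 6.73 and 2.06 in moderate kidneys 1 to 5, against 0.12 to 1.18 in controls. Kidneys 1, 3 and 4 stood far above the controls, kidney 5 stood above them by less than 1 log2 unit and kidney 2 lay among them. The difference was 3.60 ± 0.83 (SE, adjusted p = 0.0381, limma). Fga, the alpha chain, differed by 2.09 ± 0.46 (adjusted p = 0.0319) and Cp, the copper-carrying ferroxidase ceruloplasmin, by 2.38 ± 0.57 (adjusted p = 0.0419). Fgb, the beta chain, had a similar pattern without passing the test, at 4.28, −2.03, 0.41, 3.83 and −0.41 against −2.45 to −0.69 (adjusted p = 0.086).

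Other members of the list had mean differences as large, with a wide spread between moderate kidneys, and were not called. Saa2, a serum amyloid A protein, read 1.39, −7.66, −0.64, 3.06 and −5.58 and was not well above background on any control array (adjusted p = 0.0681). Itih4, an inter-alpha-trypsin inhibitor heavy chain, differed by 4.09 ± 1.06 (adjusted p = 0.0556), and Serpina10 by 3.27 ± 0.86 (adjusted p = 0.0578). The list median per kidney was 4.13, 0.26, 2.07, 4.39 and 0.62 in moderate kidneys 1 to 5 and −0.23 to 0.40 in controls, so kidney 2 was inside the control range. The list had no call without moderate kidney 1, without 3 or without 4, whereas it had 11 without kidney 2 and 10 without kidney 5.

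Complement C3, the protein on which the complement pathways converge, was the 1 call among 16 complement genes tested, and the list median was 0.63. It read 6.83, 3.79, 5.44, 6.63 and 3.47 against 2.11 to 3.09 in controls, a difference of 2.74 ± 0.66 (SE, adjusted p = 0.043, limma) with no overlap. It was called in 9 of the 24 fits that left out a kidney. C4b had no overlap either, at 2.31 ± 1.05, and was not called (adjusted p = 0.245). Cfi, a protease that inactivates C3b, differed by 1.86 ± 0.60 (adjusted p = 0.11).

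Of 13 chemokines tested, 2 were called and the median was 0.41. Cxcl1, which attracts neutrophils, read 1.14, 1.64, −0.99, −0.68 and −1.62 against −3.27, −3.17, −4.34, −4.70, −3.84 and −3.48. All moderate kidneys were above all controls, kidney 2 being the highest, and the difference was 3.69 ± 0.78 (SE, adjusted p = 0.0276, limma). Ccl9, a chemokine of myeloid cells, differed by 2.55 ± 0.59 (adjusted p = 0.0381). Ccl2, which attracts monocytes, read −0.14, −0.85, 0.27, −0.50 and −3.92 against −3.67 to −1.52, with kidney 5 below every control (adjusted p = 0.288). Of 13 markers of macrophages and neutrophils 0 were called in limma, with 3 at an unadjusted p under 0.05 and a list median of 0.45, and Ptprc, the leukocyte antigen CD45, differed by 0.45 ± 0.30 (adjusted p = 0.434). Of 12 lymphocyte markers 1 was called: Gzma, the granzyme A of cytotoxic cells, fell by 1.59 ± 0.31 (SE, adjusted p = 0.0198, limma).

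Tubular injury markers are genes that damaged tubule cells are known to switch on. Of 20 tested, 1 was called higher: Krt20, a keratin of urothelium and injured tubules, at 2.39, 0.51, 1.76, 1.86 and −0.96 against −2.87 to −1.30, a difference of 3.03 ± 0.75 (SE, adjusted p = 0.0491, limma). That call was lost in 18 of the 24 fits that left out a kidney. Lcn2, the siderophore-binding lipocalin, read 6.59, −1.05, 4.29, 5.30 and −1.16 in the moderate and −0.69, −1.34, −0.66, −1.32, −0.40 and −0.35 in the control kidneys. Moderate kidneys 1, 3 and 4 were thus higher by at least 4 log2 units than any control, and kidneys 2 and 5 lay inside the control range (difference 3.59 ± 1.12, adjusted p = 0.0998).

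Havcr1, the phosphatidylserine receptor KIM-1, split the kidneys likewise: 1.81, −3.08, −0.05, 1.93 and −2.60 against −3.50 to −2.56. Timp1, an inhibitor of matrix metalloproteinases, read 2.07, −1.88, 0.70, 2.83 and −3.52 against −3.92 to −3.11, so that kidney 5 alone lay inside the control range. Clu, the secreted chaperone clusterin, differed by 1.20 ± 0.48, Spp1 (osteopontin) by 1.51 ± 0.44 and Mmp7 (matrilysin) by 4.40 ± 1.18, and none of these passed the test (adjusted p = 0.188, 0.0774 and 0.0616). In the list, 18 of 20 members had a positive difference, with a median of 1.17. The number called was 0 without moderate kidney 1, 3 or 4, 4 without kidney 2 and 6 without kidney 5. On the second slide, which carried moderate kidneys 2 and 5, Lcn2 was also low in severe kidney 3 (−0.27) and high in severe kidney 5 (5.48). Within slides, the moderate minus control difference of Lcn2 was 6.95 on slide 1, −0.24 on slide 2 and 4.79 on slide 3, and for Fgg it was 6.25, 0.65 and 3.83. For Fos the 3 values were 3.85, 3.97 and 4.70. The part of the slide in these differences was not tested.

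**Figure D2:**
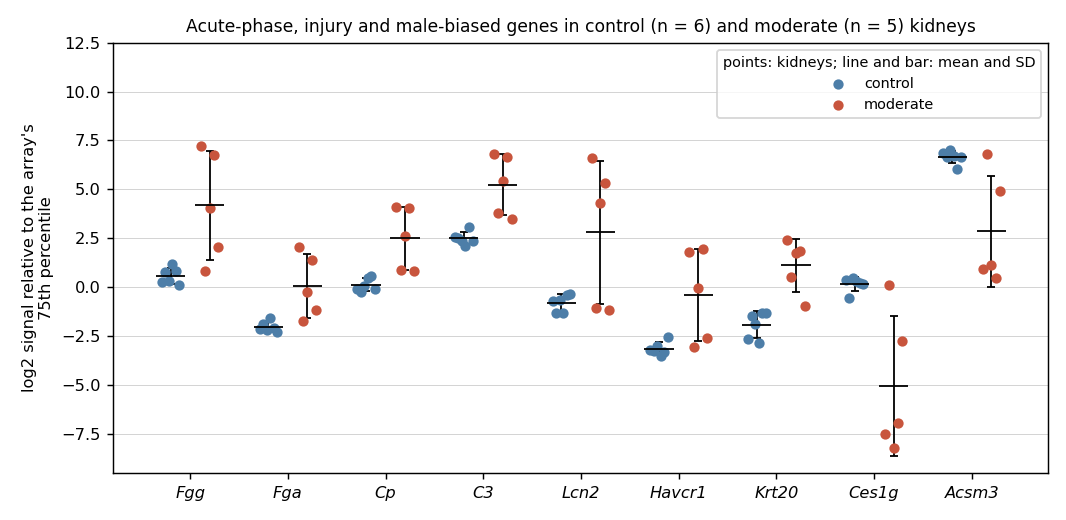
Log2 signal relative to the 75th percentile of the array for acute-phase (Fgg, Fga, Cp), complement (C3), injury (Lcn2, Havcr1, Krt20) genes, Ces1g and the male-biased gene Acsm3; each point is a kidney (6 control, 5 moderate), and the line and bar are the mean and SD. The moderate kidneys spread over several log2 units for each gene; for Lcn2 they run from −1.16 to 6.59 while the controls stay between −1.34 and −0.35.

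Cornified envelope genes build the cross-linked protein shell of stratified epithelium. Of 9 tested, Sprr2g and Ivl were called. Sprr2g, a small proline-rich protein and the largest named rise, read 1.79, −2.69, 0.02, 1.76 and −5.07, and was not well above background on any control array (−8.21 to −6.21). Where 1 group was never above background the fold is a bound, taken against the dimmest probe that stood well above background on each array; Sprr2g was at least 31.8-fold higher (adjusted p = 0.0153, limma). Ivl, the envelope precursor involucrin, read −1.47, −1.40, −1.79, −0.36 and −3.38 against −7.23 to −4.58 and differed by 3.74 ± 0.72 (SE, adjusted p = 0.0197). Sprr2f read 3.59, −4.87, −0.11, 1.02 and −7.72 with no control array above background and was not called (adjusted p = 0.0781). Sprr1a differed by 2.02 ± 0.56 (adjusted p = 0.0688). The other tested members had smaller differences, and the list median was 0.42.

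The remaining named genes with the largest rises serve mixed roles. Lyve1, the hyaluronan receptor of lymphatic vessels, read −1.08, −2.76, −2.63, −2.03 and −3.94 against −7.31 to −5.12, a difference of 3.64 ± 0.64 (SE, adjusted p = 0.0143, limma) with no overlap. Grem1, a secreted antagonist of bone morphogenetic proteins, differed by 3.50 ± 0.71 (adjusted p = 0.0213). Control kidney 5, at −1.82, lay inside the moderate range for Grem1, while the other controls read −7.64 to −5.57. Tph1, the rate-limiting enzyme of serotonin synthesis outside the brain, was at least 4.02-fold higher (adjusted p = 0.0145), Mmp3 (stromelysin) at least 9.92-fold (adjusted p = 0.0318) and Rgs1, a G-protein signalling regulator, at least 2.85-fold (adjusted p = 0.0386), each above background on 4 of 5 moderate and no control arrays. Mup17, Mup19 and Mup4, major urinary proteins that bind pheromones, differed by 5.40 ± 1.33, 4.76 ± 1.14 and 3.51 ± 0.86 (adjusted p between 0.043 and 0.0464). The Mup genes are a family of near-identical copies, so probes may not separate them.

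The largest named fall was Ces1g, a carboxylesterase that hydrolyses lipid esters and drugs. It read −7.50, 0.12, −8.22, −6.92 and −2.78 in moderate kidneys 1 to 5 and 0.34, −0.57, 0.45, 0.32, 0.20 and 0.15 in controls. Kidney 2 was inside the control range, kidney 5 was below it, and Ces1g was not well above background in kidneys 1, 3 and 4, whose values are therefore only upper limits on its level. The fitted mean difference of −5.21 ± 1.29 (SE, adjusted p = 0.0481, limma) includes these dim values and its size is uncertain. The same holds for Henmt1, Ccdc158 and Zfp811, each well above background on 1 of 5 moderate arrays, and for Tex21, on 3 of 5. Henmt1, which methylates the ends of piRNAs, fell without overlap, at −7.71, −3.13, −6.18, −7.65 and −5.68 against −2.87 to −2.53 (difference −3.40 ± 0.69, adjusted p = 0.0237). Ldc1 also fell without overlap, by 3.02 ± 0.74 (adjusted p = 0.0459), as did Tex21 (−3.34 ± 0.71), Zfp365 (−2.49 ± 0.53), Nat8f6 (−2.11 ± 0.51), Tyw3, a tRNA-modifying enzyme (−1.85 ± 0.42), Tnnc1, slow troponin C (−1.75 ± 0.30), and Rtp3 (−1.68 ± 0.39).

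Spry3, a Sprouty inhibitor of growth factor receptor signalling, was above background on all 6 control arrays and on no moderate array, and was at least 1.63-fold lower (adjusted p = 0.0118, limma). Ralyl, an RNA-binding protein, was at least 1.27-fold lower by the same bound (adjusted p = 0.0323). For Ccdc158, Mtmr7 (a phosphoinositide phosphatase), Cd55b (a complement decay-accelerating factor) and Zfp811 the groups overlapped although the genes were called, at −2.69 ± 0.65, −2.31 ± 0.50, −1.87 ± 0.39 and −1.71 ± 0.36. Moderate kidney 2 lay within the control range for Ccdc158 and Mtmr7 and just above it for Cd55b, and moderate kidney 1 reached it for Zfp811.

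Male-biased kidney genes are those that androgen keeps high in the proximal tubule of male mice. The list is the paper's own table of such genes, picked because they were lower in all mgb-/- kidneys of this series than in controls. Their direction here was thus largely set by that choice and is given as description. Of 12 tested 0 were called in limma and 10 had an unadjusted p under 0.05. All 12 had a negative difference, with a median of −2.47. Acsm3, a medium-chain acyl-CoA synthetase, read 0.91, 6.80, 1.13, 0.49 and 4.92 against 6.05 to 7.00 (difference −3.80 ± 1.35, adjusted p = 0.14). Slco1a1, an organic anion transporter, read −4.27, 3.21, −3.71, −4.86 and 1.24 against 2.56 to 3.59 (adjusted p = 0.0808), and Slc7a13, an aspartate and glutamate transporter, 0.98, 5.31, 0.54, 1.33 and 5.53 against 5.29 to 5.67. Kidneys 1, 3 and 4 were the farthest below the controls, kidney 5 was below every control for Acsm3 and Slco1a1 and kidney 2 was inside the control range for all of these genes. Without moderate kidney 2, 4 of the 12 were called. Y-linked genes had a list median of 0.01 over 4 tested, with 0 called in limma and 0 at an unadjusted p under 0.05.

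The female-biased genes come from the same table of the paper, picked because they were higher in these mgb-/- kidneys, so their direction was largely set too. Of the 6, 2 were called higher and the median was 1.98. Bhmt, a methyltransferase of betaine metabolism, read 2.51, −0.47, 0.06, 1.84 and 0.53 against −1.87 to −0.54 (difference 2.14 ± 0.51, adjusted p = 0.0419, limma). Gsta2, a glutathione transferase, differed by 1.82 ± 0.42 (adjusted p = 0.0376), with moderate kidney 2 at 2.38 inside the control range of 1.78 to 3.18. Its relatives Gsta1 (1.79 ± 0.41), Gm10639 (1.77 ± 0.31) and Gsta4 (1.07 ± 0.26) were called too, and were named after their values were seen. Gsta genes are close copies, so these may not be separate signals. Serpina6, the corticosteroid-binding globulin, read 7.18, 3.21, 7.75, 7.13 and 4.39 against 1.57 to 3.99 and was not called (adjusted p = 0.0545).

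Genes of fatty acid oxidation and PPAR-alpha response had 1 call among 24 tested, at a median of −0.10. Cyp4a14, a fatty acid hydroxylase and PPAR-alpha target, read 7.10, 3.80, 6.24, 6.95 and 5.68 against 2.64 to 3.87, a difference of 2.72 ± 0.54 (SE, adjusted p = 0.0213, limma), with kidney 2 inside the control range. Its relative Cyp4a10 differed by 0.78 ± 0.32 (adjusted p = 0.203) and Ppara itself by −0.07 ± 0.22. Among 24 retinoid genes Aldh1a7, an aldehyde dehydrogenase, was the 1 call at 1.66 ± 0.36 (adjusted p = 0.0315). The list was mixed in direction, with 13 positive and 11 negative differences and a median of 0.12. In limma 15 of the 24 had an unadjusted p under 0.05. Adh7, a retinol-oxidising alcohol dehydrogenase, had no overlap at 3.02 ± 0.82 and was not called (adjusted p = 0.0642). Among 20 steroid and glucocorticoid genes Ddit4, an inhibitor of mTORC1, was the 1 call at 1.09 ± 0.19 (adjusted p = 0.0146). Here 10 differences were positive and 10 negative, with a median of −0.08, and 12 had an unadjusted p under 0.05 (limma).

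A few called genes outside the lists were named after their values were seen. Rasd1, a glucocorticoid-inducible Ras-like protein, read −1.02, −2.68, −1.63, −1.83 and −2.17 against −4.81 to −3.75, a difference of 2.24 ± 0.27 (SE, adjusted p = 0.000219, limma). The sterol-regulated genes Insig1 (1.01 ± 0.22) and Acat2 (1.04 ± 0.25) were higher in every moderate kidney than in any control. Dbp, a clock output transcription factor, fell without overlap, at 4.01 to 4.89 against 5.30 to 6.14 (difference −1.44 ± 0.35, adjusted p = 0.046). Lhx9, a LIM homeodomain factor, was at least 5.38-fold higher (adjusted p = 0.00982), Fetub (fetuin-B) differed by 1.70 ± 0.28 (adjusted p = 0.0118), and Afp (alpha-fetoprotein) by −1.38 ± 0.21 (adjusted p = 0.00769). The times of day at which kidneys were taken are not given in the sources used here.

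Cell cycle genes had 1 call of 23, in the downward direction, with a median of −0.59: Mcm10, a replication initiation factor, fell without overlap by 1.36 ± 0.30 (SE, adjusted p = 0.0313, limma). Mki67, the proliferation antigen, differed by −0.70 ± 0.42 (adjusted p = 0.376). Cdkn1a, the inhibitor p21, differed by 1.71 ± 0.49 (adjusted p = 0.0731), while its other probe differed by −0.59, in the opposite direction. Gadd45g, a growth arrest gene, passed the adjusted p (0.0213) at 0.99 ± 0.20, just under 2-fold. Of 23 matrix and fibrosis genes tested 0 were called in limma and 10 had an unadjusted p under 0.05, and all 23 had a positive difference, with a median of 0.62. Col1a1, the main fibrillar collagen chain, read 3.80, 3.87, 4.07, 4.66 and 1.44 against 2.47 to 3.02 (adjusted p = 0.323). Moderate kidney 5 was below every control for Col1a1 and the other 4 were above, and without kidney 5 the list had 8 calls.

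Transport genes of the tubule had few calls. Of 28 proximal tubule genes 0 were called in limma, at a median of −0.16. An unadjusted p under 0.05 was held by 6 of them, beside 5157 of all 27971 genes. Slc34a1, the phosphate transporter, differed by −0.37 ± 0.28 (adjusted p = 0.495) and Lrp2, the endocytic receptor megalin, by −0.17 ± 0.24 (adjusted p = 0.751). Of 19 urine concentration genes 1 was called: Ptgs2, the inducible prostaglandin synthase COX-2, read 0.15, −3.20, −1.81, −2.72 and −3.58 against −5.97 to −4.69, a difference of 3.16 ± 0.57 (SE, adjusted p = 0.0146, limma) with no overlap. Aqp2, the vasopressin-regulated water channel, differed by 0.53 ± 0.31 (adjusted p = 0.364). Of the podocyte (10 tested), endothelial (10) and intercalated cell markers (12) 0 were called in limma, with 1, 1 and 0 at an unadjusted p under 0.05 and medians of 0.07, −0.01 and −0.11. Nphs1 (nephrin) differed by −0.02 ± 0.21 and Pecam1 by 0.10 ± 0.18.

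Of 15 thick limb and distal tubule markers 1 was called, and it had the second lowest p of the whole comparison. Cldn16, the tight junction protein of magnesium and calcium reabsorption in the thick limb, read 2.08, 1.88, 1.94, 2.33 and 2.21 in the moderate and 0.28, 0.42, 0.53, 0.39, 0.61 and 0.38 in the control kidneys. The 5 moderate kidneys lay within 0.5 log2 units of each other, kidneys 2 and 5 included, and the difference was 1.65 ± 0.14 (SE, adjusted p = 1.31e-06, limma), or 3.15-fold. Umod, uromodulin of the same segment, differed by −0.05 ± 0.13 (adjusted p = 0.891), and the list median was −0.16.

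Cldn16 has called neighbours, which was noticed after the values were seen. In the RefSeq order along chromosome 16, the 16 genes from Trp63 to Opa1 hold Cldn16, Tmem207, Il1rap, Gmnc, Ostn, Uts2b and Ccdc50 in a row, and 4 of these were called higher. Ccdc50, a ubiquitin-binding coiled-coil protein, read 0.77, 1.08, 0.96, 0.93 and 0.99 against −0.52, −0.54, −0.74, −0.57, −1.14 and −0.89, a difference of 1.68 ± 0.11 (SE, adjusted p = 6.52e-09, limma). It had the lowest p of all genes tested. Tmem207, a transmembrane protein, read 0.98, 1.12, 2.20, 1.45 and 1.73 against −0.62 to 0.11 (difference 1.72 ± 0.31, adjusted p = 0.0153). Gmnc, a regulator of multiciliated cell fate, was above background on 4 moderate and no control arrays and was at least 3.21-fold higher (adjusted p = 0.0198).

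Il1rap, which lies between Tmem207 and Gmnc, was not called, at −0.38 ± 0.15 (adjusted p = 0.196), and Ostn and Uts2b were too dim to be tested. Beyond Ccdc50, Fgf12 differed by 0.76 ± 0.30 (adjusted p = 0.186) and Atp13a4 by 1.56 ± 0.51 (adjusted p = 0.111), with moderate kidney 2 within the control range for both. Trp63, P3h2 and Cldn1 on the other side were not called. Against the same controls, with 2.21% of all genes called in mild and 4.71% in severe kidneys, these 4 genes were called in the other grades too: Cldn16 was higher by 1.87 in mild and 1.53 in severe kidneys, Ccdc50 by 1.66 and 1.54, Tmem207 by 2.42 and 2.10 and Gmnc by 3.36 and 2.96. Atp13a4 was also called in both, at 2.30 in mild (adjusted p = 0.00686) and 1.51 in severe kidneys (adjusted p = 0.0371), and Fgf12 in mild kidneys at 1.13 (adjusted p = 0.0206). On the whole chromosome 8 of 526 named genes tested were called higher (1.52%), against 106 of 16505 named genes in all (0.642%), and 4 of the 8 are the neighbours that prompted the count. Chromosome 9 held 13 of 922 (1.41%) and chromosome 3 held 9 of 803 (1.12%). Without moderate kidneys 1 and 3 the fit called 3 genes, namely Ccdc50, Cldn16 and Rasd1.

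**Figure D3:**
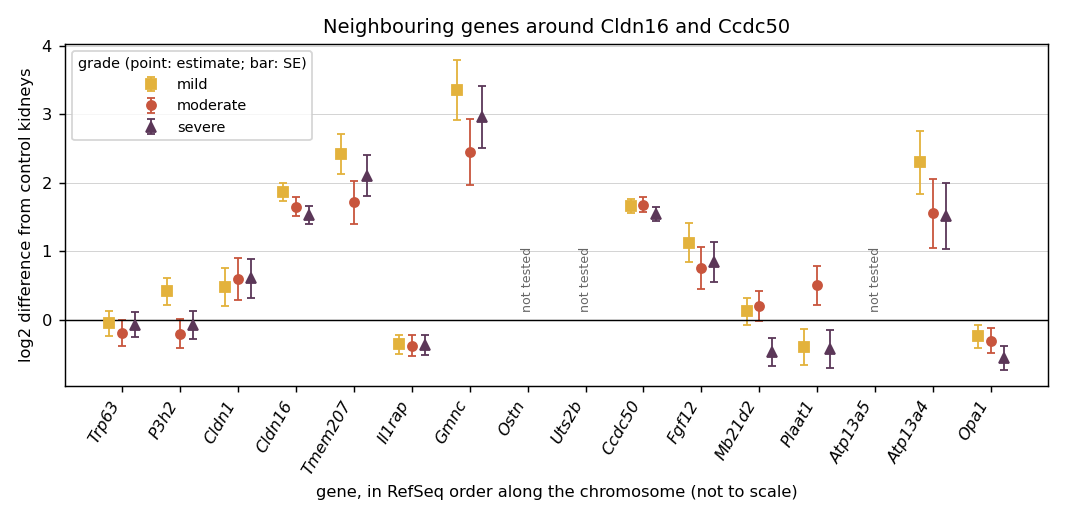
Log2 difference from the 6 control kidneys for 16 neighbouring genes in their order along the chromosome, with the standard error as a bar, for mild (7), moderate (5) and severe (6) kidneys; the horizontal axis gives order and not distance. Cldn16, Tmem207, Gmnc and Ccdc50 are higher in all 3 grades, while Il1rap, which lies among them, is slightly below 0.

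Myocd, named here for its place in the description of the line, was tested on these arrays. It read −2.89, −3.44, −2.32, −3.31 and −3.82 in moderate and −4.19, −4.20, −4.44, −4.81, −4.50 and −2.29 in control kidneys, a difference of 0.92 ± 0.38 (adjusted p = 0.204, limma). Smooth muscle markers as a group had a positive difference in all 9 tested, with a median of 0.92 and 1 call, Tagln (transgelin), at 1.50 ± 0.34 (adjusted p = 0.0333). Acta2, smooth muscle actin, read 4.92, 3.95, 4.73, 5.15 and 2.44 against 2.28 to 3.39 (adjusted p = 0.0514). Whole kidney includes the muscular wall of the pelvis and vessels.

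Urothelium markers, of the epithelium that lines the pelvis, had 2 calls of 16 tested, at a median of 1.50. Krt14, a basal keratin, read −0.74, −1.86, −0.78, −0.17 and −3.12 against −4.01 to −3.16 (difference 2.28 ± 0.52, adjusted p = 0.0344, limma), and Krt19 differed by 2.57 ± 0.61 (adjusted p = 0.0419). The uroplakins, plaque proteins of the urothelial surface, were not called: Upk1b differed by 1.88 ± 0.57 and Upk3a by 1.33 ± 0.57 (adjusted p = 0.0909 and 0.214). Upk3a read 3.02, 3.36, 3.11, 3.33 and 1.51 against 0.49 to 2.22. The list median per moderate kidney was 1.66, 1.76, 1.59, 2.13 and 0.26, against −0.76 to 0.53 in controls, so kidney 2 stood with kidneys 1, 3 and 4 here and kidney 5 lay inside the control range. Sprr2g, Ivl and Krt20 had the lowest value of the 5 in kidney 5 as well. The part of the urothelium in these rises was not tested.

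Tissues that adjoin the kidney also varied between samples. Adrenal markers, genes of steroid and catecholamine synthesis, had a list median of 8.88 in moderate kidney 1 and 3.20 in kidney 3, against 0.25, 0.01 and 0.29 in kidneys 2, 4 and 5 and −0.26 to 0.25 in controls. Their summed linear level, relative to the 75th percentile, ran from 0.902 to 305 in moderate kidneys and from 0.629 to 0.986 in controls. Cyp21a1, the adrenal 21-hydroxylase, read 7.00, −3.19, 1.32, −2.67 and −2.12 against −3.44 to −1.95, and Chga (chromogranin A) 5.00, −6.88, −1.27, −6.28 and −4.73. Of the 10 tested 0 were called in limma, and 3 had an unadjusted p under 0.05. Without kidneys 1 and 3 the comparison had 3 genes higher and 0 lower, with kidneys 2, 4 and 5 left. Left out alone, kidney 1 gave 10 higher and 4 lower, kidney 3 gave 38 and 22 and kidney 4 gave 31 and 5. Kidney 2 gave 368 and 263 and kidney 5 gave 459 and 179. The fit without kidneys 1 and 3 holds fewer kidneys than these and is not set against them. The adrenal list median ran from 0.26 to 9.08 in mild and from 0.02 to 1.17 in severe kidneys.

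Adipocyte markers read 2.74, 0.15, 1.92, 1.87 and −1.50 in list median against −2.50 to 1.40 in controls. Ucp1, the uncoupling protein of brown fat, spanned −3.21 to 5.81 in moderate and −2.14 to 2.96 in control kidneys. Kidney 5 was the lowest of the moderate kidneys for fat, smooth muscle, matrix, urothelium, and macrophage and neutrophil markers. Liver and erythroid markers had medians of −0.00 and −0.30 without a call, and Alb differed by −0.28 ± 1.38. The part of adjoining tissue in the gene differences was not tested.

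**Figure D4:**
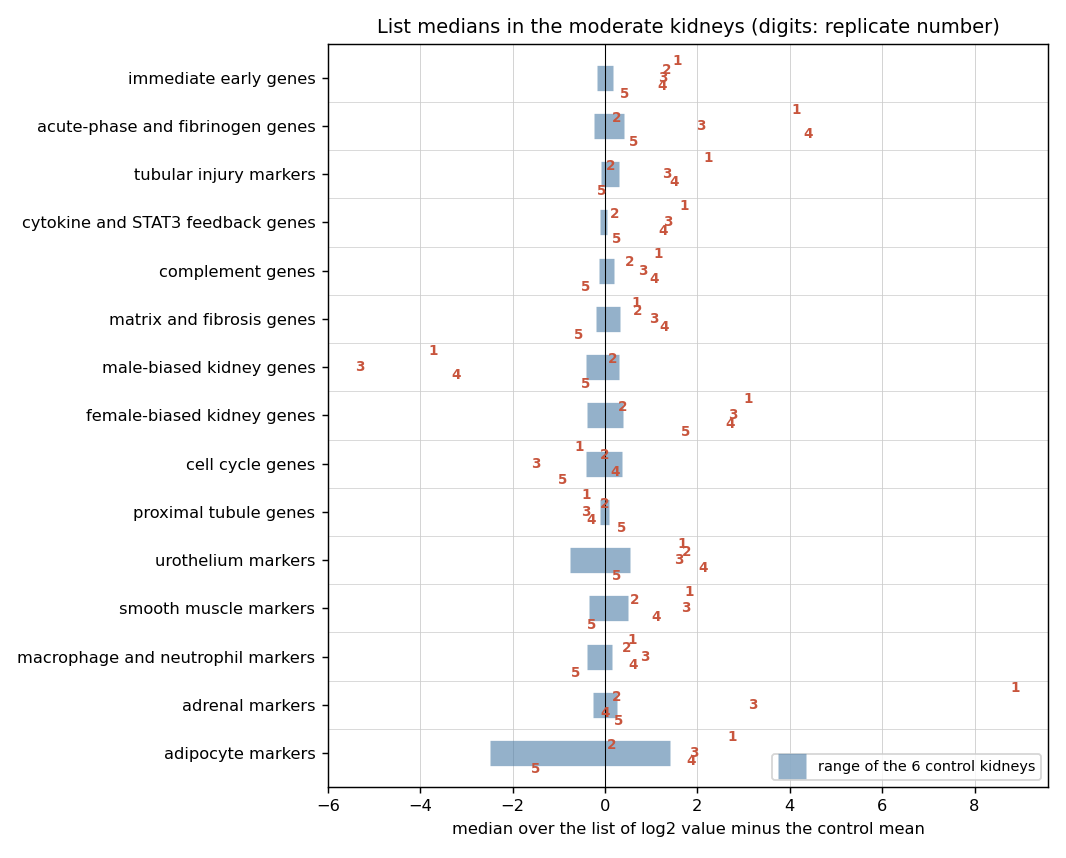
Median over each gene list of the log2 value minus the control mean, for moderate kidneys 1 to 5 (digits) beside the range of the 6 control kidneys (blue bars). Kidneys 2 and 5 lie near or in the control range for acute-phase, injury and male-biased genes, kidney 5 alone is near it for urothelium, and kidneys 1 and 3 stand out for adrenal markers, at 8.88 and 3.20.

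The moderate kidneys were also compared with the grades on either side. No gene was called between moderate and mild kidneys (0%, lowest adjusted p = 0.22, limma). Of the 27971 genes tested, 1869 had an unadjusted p under 0.05. With no difference at all, a share of about 0.05 of the genes would pass that threshold. The severe minus moderate contrast held 2 calls (0.00715%) and 2898 genes at an unadjusted p under 0.05. Krt15, a basal keratin of the urothelium, stood 2.68 ± 0.40 above the moderate level in severe kidneys (SE, adjusted p = 0.0233). It read −2.18, −1.80, −2.11, −1.30 and −3.31 in moderate and −0.02 to 2.03 in severe kidneys, while moderate and control kidneys differed by 0.21 ± 0.40. Gpat3, which starts triglyceride synthesis, was lower in severe kidneys by a difference of −1.46 ± 0.23 (SE, adjusted p = 0.0359). It read 3.94, 2.48, 2.75, 4.09 and 3.07 in moderate, 1.39 to 2.34 in severe and 2.35 to 2.63 in control kidneys. A gene that misses the threshold is not shown to be alike in 2 grades.

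The mild and severe comparisons use the same controls, so their values are given side by side. Immediate early genes had medians of 1.62 in the mild, 1.11 in the moderate and 1.56 in the severe grade. Acute-phase genes had medians of 0.98, 2.32 and 1.03, and tubular injury markers 0.41, 1.17 and 0.88. For both lists the medians of single kidneys overlapped between grades. Acute-phase medians ran from 0.61 to 1.51 in mild, 0.26 to 4.39 in moderate and 0.14 to 2.51 in severe kidneys. Those of injury markers ran from 0.23 to 0.76 in mild, −0.07 to 2.22 in moderate and 0.24 to 2.55 in severe kidneys. Urothelium markers had medians of 0.42, 1.50 and 3.18. Fgg, for example, differed from controls by 1.04 in the mild grade, 3.60 in the moderate grade and 0.88 in the severe grade. Fgg was not called between moderate and mild or severe and moderate kidneys (adjusted p = 0.554 and 0.283).

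Every moderate kidney lay above every control kidney for 369 genes (1.32%) and below for 511 (1.83%), of which 110 and 35 were among the called genes. The groups overlapped for 59 of the 204 called genes, most often through kidney 2 or 5, and 735 genes that did not overlap were not called. Leaving out any kidney can only keep or raise the number of genes without overlap, which was 880 with all kidneys. It was 927 without moderate kidney 1, 1965 without kidney 2, 1160 without kidney 3, 1550 without kidney 4 and 2199 without kidney 5. Among controls it was highest without control kidney 5, at 1356.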

How the data were processed

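Total RNA of snap-frozen whole kidneys was labelled with Cy3 and hybridised to 1-colour Agilent mouse arrays, 1 kidney per array. The authors deposited Agilent Feature Extraction 10.10 output, in which the processed signal is an intensity already corrected for background. The authors also deposited a table of normalized intensities, which was put on the log2 scale here and used as an alternative.

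Here the processed intensity was put on the log2 scale and the 75th percentile of an array, taken without its control spots, was subtracted, and outlier spots were set to missing (324 genes lacked at least 1 array). Probes well above background on at least 5 of 24 arrays were kept (38848 of 55681). The probe with the highest mean stood for a gene, which gave 27971 genes, 16505 of them with a symbol from RefSeq. Groups were compared with limma 3.58.1 (lmFit and eBayes, 2-sided) in 1 fit of the 4 groups without covariates, called at an adjusted p under 0.05 and 2-fold. The number of kidneys limits the precision. The fit was tested on simulated data.

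Text names are the 15 named genes with the largest rise and the 15 with the largest fall, members of 16 pathway and 13 marker lists, genes called between grades and the genes said to be named after their values were seen. The groups and lists were chosen with earlier results of these data known. Alternatives tried were normalization, background correction, probe filter, probe choice, slide as a block, a replicate block, array weights, thresholds, the kidneys fitted and leaving out each kidney in turn. Array coordinates are on an older genome build than RefSeq's GRCm38.p6, so RefSeq was used for gene names, gene order and promoter sequence. R 4.3.3 and Python 3.11.15 were used.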

Additional observations from a re-analysis of the deposited data

Results flagged for a closer look

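Of 250 combinations of a named gene with the moderate or the control group, 23 (9.2%) had 1 kidney far from the rest by Dixon's ratio, the gap to the nearest kidney divided by the range of the group. Chance flags about 1 in 20 groups, and genes measured in the same kidneys do not flag independently. The kidney apart was moderate kidney 5 for 7 genes and moderate kidney 2 for 4.

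Moderate kidney 5 was the lowest for Lyz2, a macrophage and neutrophil lysozyme (ratio 0.803), Upk3a (0.816), Egr2 (0.759), Ddit4 (0.750), Col1a1 (0.735) and Ccl2 (0.734), and the highest for the podocyte gene Nphs1 (0.839). Moderate kidney 2 was the lowest for Atp13a4 (0.812) and the highest for Ccdc158 (0.819), Cd55b (0.809) and Fosb (0.768). Moderate kidney 1 was the highest for Zfp811 (0.851).

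Among controls, kidney 5 was the highest for Jund (0.752), Atf3 (0.646) and Grem1 (0.643) and the lowest for Acsm3 (0.648). Control kidney 6 was the highest for Cyp11b1, an adrenal steroid hydroxylase (0.808), Sprr2f (0.789) and Myocd (0.755). Control kidney 4 was the lowest for Adipoq, an adipocyte hormone (0.628). Control kidney 3 was the lowest for Egr2 (0.729), control kidney 2 for Ces1g (0.7098) and control kidney 1 for Cebpd (0.662).

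The difference between severe and moderate kidneys was itself called by limma for 2 genes. Krt15 was higher in severe kidneys (log2 difference 2.68, adjusted p = 0.0233) and Gpat3 was lower (−1.46, adjusted p = 0.0359).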

How the results depend on the processing

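The counts of called genes were the least stable results. Against 148 higher and 56 lower genes, median scaling gave 65 and 90, quantile normalization 129 and 89, normexp with quantile normalization 81 and 41, and the values the authors normalized 108 and 51. Of the calls, 72.5% were higher in the main setting, 41.9% under median scaling and 59.2% under quantile normalization; median scaling moved the median of all genes from −0.03 to −0.17, so its risers and fallers are relative to that shift. No filter on dim probes gave 72 and 34, array weights 656 and 400, the 2 groups fitted alone 101 and 23, an adjusted p under 0.1 378 and 150, and an adjusted p under 0.05 at any fold 155 lower. Slide as a fixed block gave 102 and 48, of which 96 and 46 were shared with the main calls. Leaving out moderate kidneys 1 and 3, chosen after seeing the data, gave 3 and 0.

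With the replicate number as a block there were 15 higher and 2 lower, 0 calls between moderate and mild kidneys and 7 between severe and moderate kidneys. Moderate and control kidneys of the same number were hybridised on the same slide, so this block overlaps with the slide. Deviations of same-numbered moderate and control kidneys correlated at −0.19 to 0.05, and for 0 of 5 was the same number the best match. Correlations over so few kidneys cannot show whether the numbers pair them. Leaving out each kidney in turn gave 10 to 459 higher and 4 to 263 lower genes, and 0 to 2 calls between moderate and mild kidneys. It gave 0 to 98 calls between severe and moderate kidneys. Genes without overlap numbered 920 to 2199 (880 with all kidneys), a count that can only stay or rise when a kidney is left out.

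Between moderate and mild kidneys, array weights gave 38 calls and the 2 groups alone 1, against 0. Between severe and moderate kidneys, the 2 calls became 0 under median scaling, slide as a fixed block and the 2 groups alone, 7 under normexp, 11 in the authors' normalized values, 20 with array weights and 13 at an adjusted p under 0.1. Krt15 and Gpat3 are therefore tied to the setting. The cause of these changes was not tested.

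The direction of the 65 called genes named here reversed in no alternative. Their calls were kept in 621 and lost in 204 gene and setting pairs other than leaving out a kidney, 56 of the losses under the replicate block. In the fits that left out a kidney, their calls were kept in 1098 pairs of gene and fit and lost in 462.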
